A study of Mus musculus with 2 samples.

Results

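Sox17 is a transcription factor gene on mouse chromosome 1, and the region around it was examined for occupancy by MTF2 and JARID2 in embryonic stem (ES) cells. The region was selected on its ChIP-seq read counts in these same libraries, where it stood high in both factors, so its enrichment is given as a description and was not tested. It covers 90 kb of chromosome 1, reaching 40 kb below and 41 kb above a block from 4480001 to 4489000 in the coordinates of the deposited files, which are counted here from 1. These are 90 of the 191101 bins of 1 kb on chromosome 1 that held a read in either library. Sox17 is 1 gene, placed at about 4481001 up to 4486501. That place could not be checked against an annotation of the files' own build, which is not named in the sources used here. The RefSeq table at hand was of GRCm38.p6 and gave the gene a span of 6499 bp, longer than the 5500 bp used here, so distances to its ends are approximate. In that table the nearest protein-coding genes are Rp1 on the lower side and Mrpl15 on the upper side, followed by Lypla1 and Tcea1.

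ChIP-seq recovers the DNA bound by a protein with an antibody and counts the sequenced fragments along the genome. The series held 1 library with an MTF2 antibody and 1 with a JARID2 antibody. Both came from ES cells of the labelled strain 129SvJae x C57BL/6 at passages 10 to 15, grown without feeder cells for the last 2 to 3 passages. No treatment or genetic change is given in the labels, and no input, control antibody or replicate was analysed, so a level is a fold over the rest of chromosome 1 in the same library. After repeat reads were kept once, MTF2 had 692305 reads on chromosome 1 and JARID2 980676, which gave expected counts of 3.51 and 4.25 reads per kb. Intervals are exact 95% intervals and cover counting error only. They say nothing of the spread between cultures, and differences between the factors are differences between these 2 libraries.

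As background, Sox17 encodes an HMG-box transcription factor of the SoxF group that is needed for definitive endoderm and is also known for roles in blood vessels and in haematopoiesis. ES cells keep such lineage regulators silent but inducible. Polycomb repressive complex PRC2, which methylates histone H3 at lysine 27, occupies many of these genes, often at stretches rich in CpG. MTF2 is a Polycomb-like subunit and JARID2 a Jumonji-family subunit of PRC2, and both are known to help bring the complex to its targets. The gene is transcribed towards lower coordinates, so its start lies near the upper end of the place given above.

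The bins at 5-fold or more in each factor spanned the same 9 kb, from 4480001 to 4489000, and lay nowhere else in the window. For MTF2 the span includes 1 bin below 5-fold. The edges of the span are those of the 1 kb bins and are not exact. In steps of 200 bp, JARID2 had 3, 1 and 1 reads from 4488401 to 4489000. This block covered the whole place of Sox17 together with 1 kb past its lower end and 2.5 kb past its upper end. The block held 2183 JARID2 reads, 57.1-fold over expected (54.7 to 59.5), and 253 MTF2 reads, 8.01-fold (7.06 to 9.06). Per kept read of each library, JARID2 had 5.98 times the MTF2 signal (5.25 to 6.84). At 5-fold or more, JARID2 was called in 9 of the 90 bins of the window, MTF2 in 8, and both in the same 8. Over chromosome 1 the called shares were 1.56% of bins for JARID2, 0.164% for MTF2 and 0.125% for both. The common width held less firmly for MTF2, whose run bridges 1 uncalled bin. It was 5 kb with all deposited reads and 4 kb when the expected count came from 500 kb on either side, while the JARID2 width was 9 and 8 kb. Because the window was picked for these levels, nothing is read from the difference. The highest JARID2 bin, at 762 reads, was the highest of all chromosome 1 bins. The highest MTF2 bin, at 58 reads, was matched or exceeded in 10 bins, itself included.

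**Figure D1:**
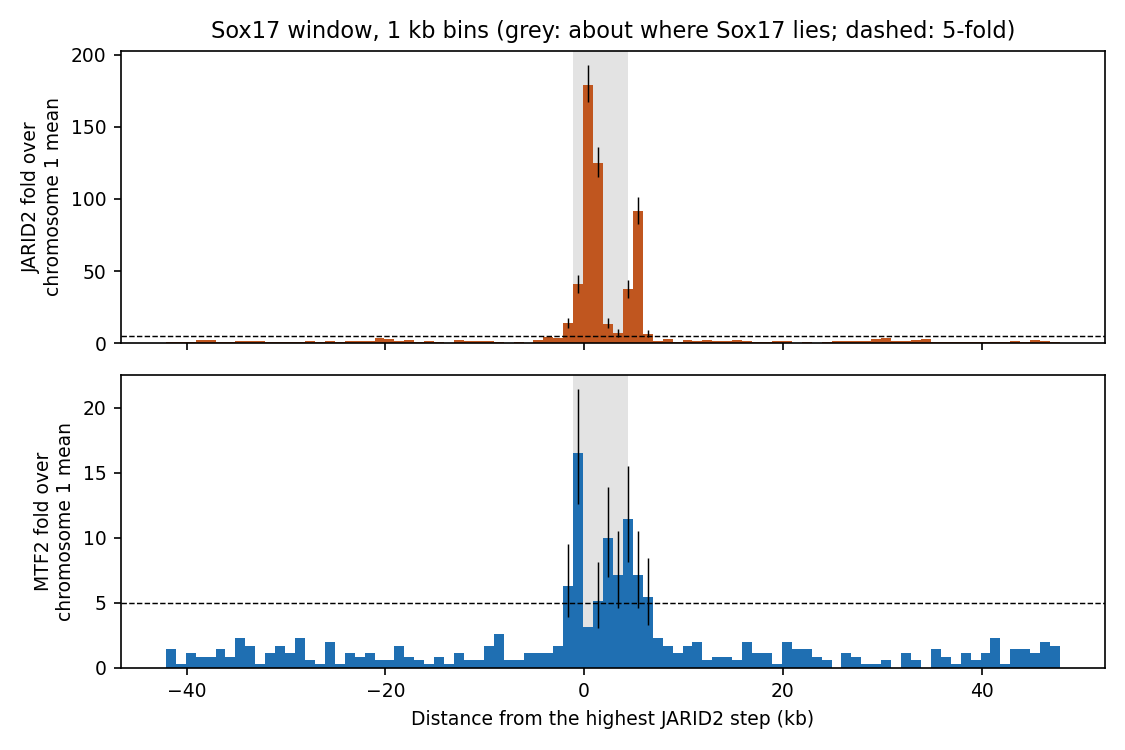
Fold over the chromosome 1 mean in each 1 kb bin of the Sox17 window for JARID2 (top) and MTF2 (bottom, on its own scale) against the distance in kb from the highest JARID2 step. Black lines are 95% Poisson intervals of bins at 5-fold or more, the dashed line is 5-fold and grey marks about where Sox17 lies; JARID2 reached 179-fold in a bin where MTF2 stood at 3.14-fold.

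The edges of the block were sharp on the upper side and more gradual on the lower side for JARID2. From the upper part of the block outwards, JARID2 counts in successive bins were 389, 26 and 7 reads, that is 91.6-fold (82.7 to 101), 6.12-fold (4.0 to 8.97) and 1.65-fold (0.662 to 3.39). MTF2 fell over the same bins from 25 to 19 and then 8 reads, or from 7.13-fold through 5.42-fold to 2.28-fold (0.984 to 4.49). On the lower side, JARID2 was 13.7-fold (10.4 to 17.6) in the outermost bin of the block and 3.53-fold (1.98 to 5.82) and 4.47-fold (2.69 to 6.98) in the next bins out, just below the threshold. MTF2 dropped there from 22 reads, 6.27-fold (3.93 to 9.49), to 6 and 4 reads, 1.71-fold and 1.14-fold. Over the first 2 kb below the block JARID2 was thus 4.0-fold (2.77 to 5.59) and MTF2 1.43-fold (0.683 to 2.62). Over the first 2 kb above it the levels were 2.12-fold (1.26 to 3.35) and 2.00-fold (1.09 to 3.35). A low JARID2 shoulder therefore extended past the lower edge without an MTF2 level that counting error separates from background.

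Beyond these first 2 kb on either side the window was close to background. The remaining 38 kb on the lower side held 138 MTF2 and 197 JARID2 reads, or 1.04-fold (0.870 to 1.22) and 1.22-fold (1.06 to 1.40). The remaining 39 kb on the upper side held 137 and 213 reads, or 1.0-fold (0.841 to 1.18) and 1.29-fold (1.12 to 1.47). Of these 77 bins the highest in JARID2 was at 3.77-fold, from 4512001, and the highest in MTF2 at 2.57-fold, from 4473001. Their medians were 1.18-fold for JARID2 and 0.855-fold for MTF2. The flanks differed from each other by less than their intervals in either library, and both JARID2 intervals lay above 1.

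No other MTF2 call lay near the Sox17 block. MTF2 calls were sparse on chromosome 1, at 313 of 191101 bins (0.164%). Their usual spacing was not measured, so the distance is not read as particular to Sox17. No bin of chromosome 1 below it reached 5-fold in MTF2, and the next above it lay 1418 kb away, at 5907001, with MTF2 at 5.42-fold and JARID2 at 81.9-fold. JARID2 had closer neighbours. Its next called bin was 61 kb above the block, at 4550001, where JARID2 was 13.7-fold and MTF2 had 0 reads. On the lower side it was 817 kb away, at 3662001, with JARID2 at 31.3-fold and MTF2 at 1.14-fold. The nearest places called in JARID2 on either side thus lacked a call in MTF2. On chromosome 1, 2986 bins were called in JARID2 and 239 in both, so a JARID2 call without an MTF2 call was common. The Sox17 block was picked as high in both, so nothing is read from the difference.

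Within the block the JARID2 signal was concentrated in a few narrow peaks. In steps of 200 bp, JARID2 ran from 1 to 183 reads with a median of 20, and 11 of the 45 steps held 90 reads or more. Peaks were taken as the highest step and the next local maxima at least 1 kb away, each extended as far as the count stayed at 50% of its height or more. The first peak was a plateau of 1000 bp from 4481801 to 4482800, with 124, 183, 173, 178 and 170 reads in its steps. The intervals of its last 4 steps overlap, so no single summit stands out from the others. The second ran for 600 bp from 4483201 to 4483800, with 158, 152 and 109 reads. The dip between these peaks went no lower than 58 reads.

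The third JARID2 peak lay apart, on the other side of a long trough. It ran from 4487001 to 4487600 with 92, 94 and 138 reads, and its highest step was centred 1000 bp above the upper end of the place of Sox17, on its start side. With the longer annotated span the gene could reach close to this step, so whether the peak lies outside the gene is not settled. The first and second peaks lay inside the gene, 1100 and 2300 bp above its lower end, where transcription ends. In the trough, from 4484001 to 4486000, JARID2 fell to 57 and 29 reads per kb. That is 13.4-fold (10.2 to 17.4) and 6.83-fold (4.57 to 9.80). Both bins were called at 5-fold, but the interval of the second reaches below that threshold. Single 200 bp steps of the trough held as few as 2 JARID2 reads.

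MTF2 followed the outline of the block but not its peaks. Its 9 bins held 22, 58, 11, 18, 35, 25, 40, 25 and 19 reads in coordinate order. The JARID2 counts of the same bins were 58, 173, 762, 531, 57, 29, 158, 389 and 26. The highest MTF2 bin, at 16.5-fold (12.6 to 21.4), adjoined the highest JARID2 bin. In that JARID2 bin, at 179-fold (167 to 193), MTF2 had its lowest level of the block, 3.14-fold (1.57 to 5.61). It was the single bin of the block not called in MTF2. These bins are the MTF2 extremes of the block, so their difference is given as a description. With the bins moved by 500 bp the highest JARID2 bin takes in part of the MTF2 maximum and MTF2 was 5.99-fold there (3.71 to 9.15), so the contrast depends on where the bins fall. The next bin, with JARID2 at 125-fold (115 to 136), had MTF2 at 5.13-fold (3.04 to 8.11). In the JARID2 trough MTF2 was 9.98-fold (6.95 to 13.9) and 7.13-fold (4.61 to 10.5).

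**Figure D2:**
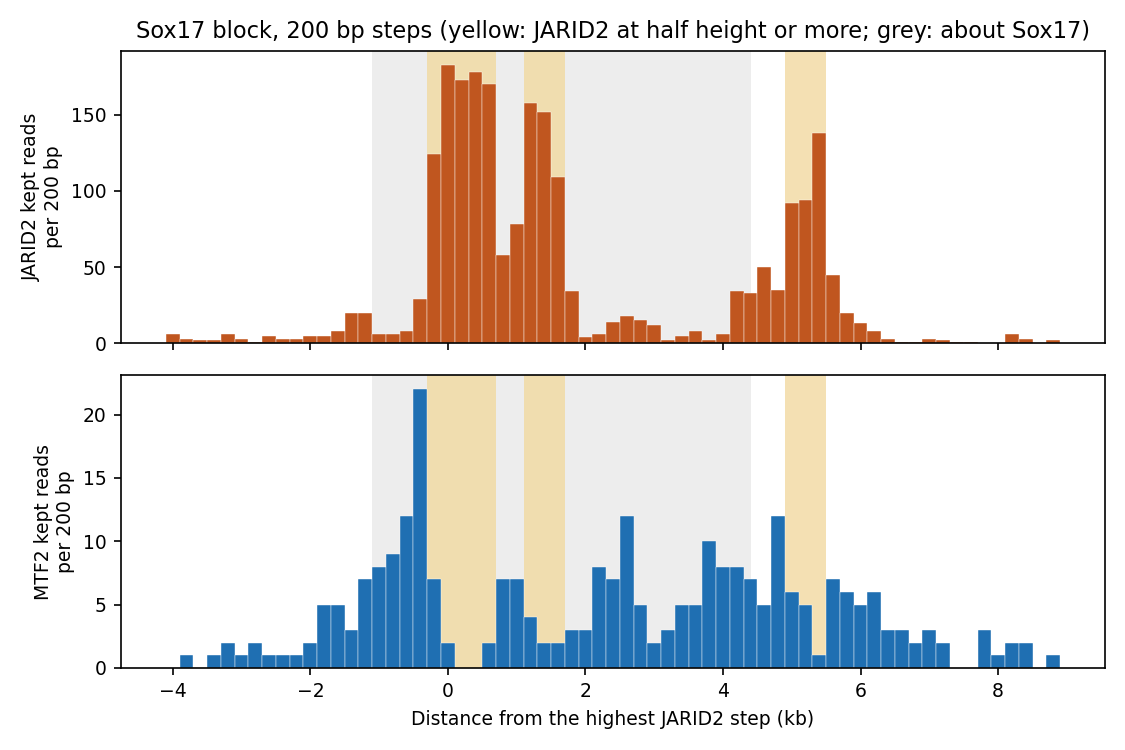
Kept reads per 200 bp step across the Sox17 block and 2 kb on either side for JARID2 (top) and MTF2 (bottom, on its own scale) against the distance in kb from the highest JARID2 step. Yellow marks the JARID2 peaks and grey about where Sox17 lies; MTF2 had 0 reads in 2 steps of the first JARID2 peak, which held 173 and 178 JARID2 reads.

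In finer steps the MTF2 maxima lay outside the JARID2 peaks. MTF2 ran from 0 to 22 reads per 200 bp with a median of 5, and 2 of the 45 steps held none. Its highest step, from 4481601 to 4481800, had 22 reads (13.8 to 33.3) and bordered the first JARID2 peak from below. JARID2 had 29 reads there and 124 in the next step. The highest steps of the factors lay 400 bp apart, a distance that ran from 200 to 910 bp under other settings. The other MTF2 maxima had 12 reads each (6.20 to 21.0). One, from 4484601, lay in the JARID2 trough, where JARID2 had 18 reads, and the other, from 4486801, bordered the third JARID2 peak, where JARID2 had 35. At the JARID2 maxima MTF2 had 2, 4 and 1 reads.

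Both empty MTF2 steps, from 4482201 to 4482600, lay in the first JARID2 peak. The longest stretch of the block without any MTF2 read ran for 646 bp, from 4482099 to 4482744, while the block as a whole had 1 MTF2 read per 35.6 bp. It held 555 JARID2 reads, 25.4% of all those in the block. Because the stretch was picked for its lack of MTF2 reads, the count of 0 there sets no limit on the MTF2 level. The next longest stretch, 271 bp from 4483629, began in the second JARID2 peak and held 118 JARID2 reads. The measure of empty stretches was chosen after the profile had been seen.

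Over the 3 JARID2 peaks, which make up 2.2 of the 9 kb, the libraries divided their reads in opposite ways. The peaks held 1571 JARID2 reads, 72.0% of the block (70.0 to 73.8), and 31 MTF2 reads, 12.3% (8.48 to 16.9). With unshifted 5′ ends in the same peaks the MTF2 share was 13.0% (9.11 to 17.8). Where the peaks were also redrawn from unshifted reads they widened to 2.8 kb and held 21.3% (16.4 to 26.8). In the 2.2 kb of peaks drawn with the shift, MTF2 was 4.02-fold over expected (2.73 to 5.70). In the remaining 6.8 kb it was 9.30-fold (8.12 to 10.6). JARID2 was 168-fold (159.9 to 177) and 21.2-fold (19.5 to 22.9). The peaks were drawn from JARID2, so its own contrast follows from the rule. The MTF2 reads had no part in drawing them. The window was picked on both libraries, so the MTF2 contrast is a description and was not tested. The JARID2 to MTF2 ratio was 35.1 (24.7 to 51.9) in the peaks and 1.91 (1.64 to 2.24) in the rest. Peak by peak, MTF2 had 11, 8 and 12 reads, or 3.14-fold, 3.8-fold and 5.70-fold, against 828, 419 and 324 JARID2 reads. Across the 45 steps the log2 counts had a Pearson r of -0.29 and a Spearman rho of -0.21, a weak relation between neighbouring steps of the same libraries that is no finding in itself. Across all 90 bins of the window r was 0.59 and rho 0.26. That reflects the shared block, since across the 81 bins outside it r was -0.02.

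**Figure D3:**
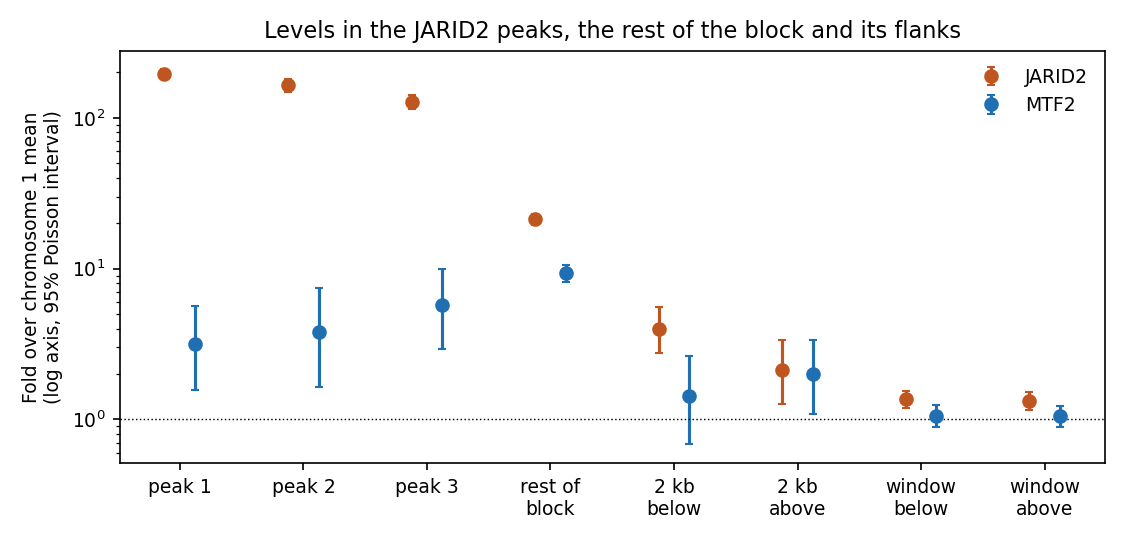
Fold over the chromosome 1 mean on a log axis, with 95% Poisson intervals, in the 3 JARID2 peaks in coordinate order, the rest of the Sox17 block, the first 2 kb on either side and the whole window on either side. JARID2 stood at 195-fold in the first peak and at 21.2-fold in the rest of the block, while MTF2 stood at 3.14-fold in that peak and at 9.30-fold in the rest.

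By position relative to the gene, the place of Sox17 held 64.4% of the MTF2 reads of the block (58.2 to 70.3) and 73.8% of the JARID2 reads (71.9 to 75.6). The 2.5 kb above it, on the start side, held 26.9% (21.5 to 32.8) and 23.5% (21.8 to 25.4). MTF2 levels were alike over these parts, at 8.45-fold (7.20 to 9.85) in the gene and 7.75-fold (6.02 to 9.83) above it, with overlapping intervals. JARID2 was 68.9-fold (65.6 to 72.4) and 48.4-fold (44.3 to 52.8). In the 1 kb below the gene JARID2 was 13.7-fold and MTF2 6.27-fold, with a JARID2 to MTF2 ratio of 1.83 (1.10 to 3.14).

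The strands of the reads outlined the JARID2 peaks. Plus-strand reads start at the lower end of a fragment and minus-strand reads at the upper end, so a narrow source of fragments has plus-strand ends below and minus-strand ends above it. At the lower border of the first peak, in the step from 4481801, 100 of 116 JARID2 5′ ends were on the plus strand, and past the upper border of the second peak, from 4483801, 2 of 49 were. The third peak had 71 of 74 on the plus strand in the step from 4487001 and 5 of 75 in that from 4487601. The median minus-strand end lay 242, 242 and 289 bp above the median plus-strand end around the 3 peaks. For MTF2 the same distances around its maxima were 57, 42 and -42 bp. They came from at most 27 reads per strand, too few to show whether such an order was present. Over the whole block both libraries were balanced, with 50.5% (48.4 to 52.6) of JARID2 and 50.4% (44.1 to 56.7) of MTF2 ends on the plus strand.

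Repeat reads limit the height of the JARID2 peaks as given. JARID2 had 1.36 deposited reads per kept read in the block, 1.42 in its peaks and 1.09 over chromosome 1, while MTF2 had 1.07 in the block and 1.08 over the chromosome. With repeats kept once, a 200 bp step can hold at most 400 distinct 5′ ends, and up to 44.0% of them were taken in the first JARID2 peak, against at most 4.75% for MTF2 anywhere in the block. With all deposited reads the JARID2 level of the block was 73.3-fold (70.7 to 76.0), and MTF2 7.88-fold. The deposited MTF2 score, whose meaning is not given, was 0 for 39.0% of kept reads in the block (32.9 to 45.3) and 42.4% over chromosome 1. In the JARID2 peaks it was 0 for 5 of 33 MTF2 reads by their 5′ ends, 15.2% (5.11 to 31.9), and in the rest of the block for 42.5% (35.9 to 49.3). With MTF2 reads of score 0 left out, MTF2 was 4.79-fold (2.30 to 8.80) in the highest JARID2 bin, and its share in the JARID2 peaks was 16.4% (11 to 23.0).

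Among JARID2 blocks elsewhere that hold at least 1 bin at 5-fold in MTF2, the Sox17 block was high in both factors and ordinary in their ratio. There were 1164 such shared blocks on chromosomes 1 to 19 and X, Sox17 included. Blocks with many repeat reads were not removed, and in 213 (18.3%) the JARID2 to MTF2 ratio was below 1. The Sox17 block exceeded 92.4% of the 1164 in JARID2 fold, against a median of 27.4. In MTF2 fold it exceeded 84.4% of them, against a median of 5.04. Its highest JARID2 bin exceeded 98.4% of theirs. Its width of 9 kb compares with a median of 4 kb. Among the 551 shared blocks of 5 kb or more the median width was 9 kb and the median JARID2 to MTF2 ratio 5.87, beside 5.98 at Sox17. In both libraries 548 of these had fewer than 3 deposited reads per kept read. The Sox17 block exceeded 92.2% of the 548 in JARID2 fold and 91.1% in MTF2 fold, against medians of 31.9 and 4.85. These are places in a ranking of single libraries and were not tested. The region was picked as high in both libraries, so its high ranks follow from that choice and nothing is read from them.

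The MTF2 level at the strongest JARID2 bin varied widely among shared blocks. At Sox17 the MTF2 fold of that bin was 0.391 times that of the whole block. The bin held 11 MTF2 reads, 3.14-fold (1.57 to 5.61), so the quotient and its rank carry wide counting error. Among the 551 blocks of 5 kb or more the median of the same quotient was 0.994, with quartiles at 0.620 and 1.51, and it was below 1 in 276 of them. It was lower than at Sox17 in 58, or 10.5%. With these bins Sox17 thus lay towards the low end of a spread centred near equality. When the bins were moved by 500 bp, MTF2 at Sox17 was 5.99-fold in the highest JARID2 bin and 8.48-fold over the block. The quotient is therefore higher with moved bins, and its rank was not computed for them. With the MTF2 density of the main JARID2 peak divided by that of the rest of the block, Sox17 had 0.364, also from 11 MTF2 reads. The median was 0.897, and 80 blocks (14.5%) were lower.

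The 5 blocks most like Sox17 in width, MTF2 fold and JARID2 fold, by the distance between their log2 values, differed among themselves in the first of these measures and less in the second. They are named by position only. The block on chromosome 14 from 57023001 to 57032000, at a distance of 0.17, had MTF2 at 7.5-fold and JARID2 at 63.0-fold, and its MTF2 quotient was 0.390. That on chromosome 12 from 57446001 to 57456000, at 0.19, had 7.53-fold and 60.2-fold and a quotient of 0.442. Both resembled Sox17 in having little MTF2 under the strongest JARID2 bin, which reached 134-fold and 194-fold. The nearest block, on chromosome 19 from 16936001 to 16945000 at a distance of 0.15, had 8.89-fold and 58.5-fold, but its quotient was 1.12. On chromosome 13 from 72422001 and chromosome 6 from 64657001, at 0.34 and 0.37, the quotients were 1.28 and 1.18. By this quotient, which depends on where the 1 kb bins fall, blocks alike in overall level lay on either side of 1. No interval was computed for the quotients, so whether counting error separates them from 1 was not assessed. The density of MTF2 in the main JARID2 peak over that in the rest of the block was below 1 in all 5. It was below 1 in 305 of the 551 shared blocks of 5 kb or more (55.4%), so nothing is read from this. The main peaks of the 5 blocks held 6 to 34 MTF2 reads. This density quotient was 0.373 on chromosome 14, 0.416 on chromosome 12 and 0.634 on chromosome 13. It was 0.796 on chromosome 19 and 0.864 on chromosome 6, beside 0.364 at Sox17.

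**Figure D4:**
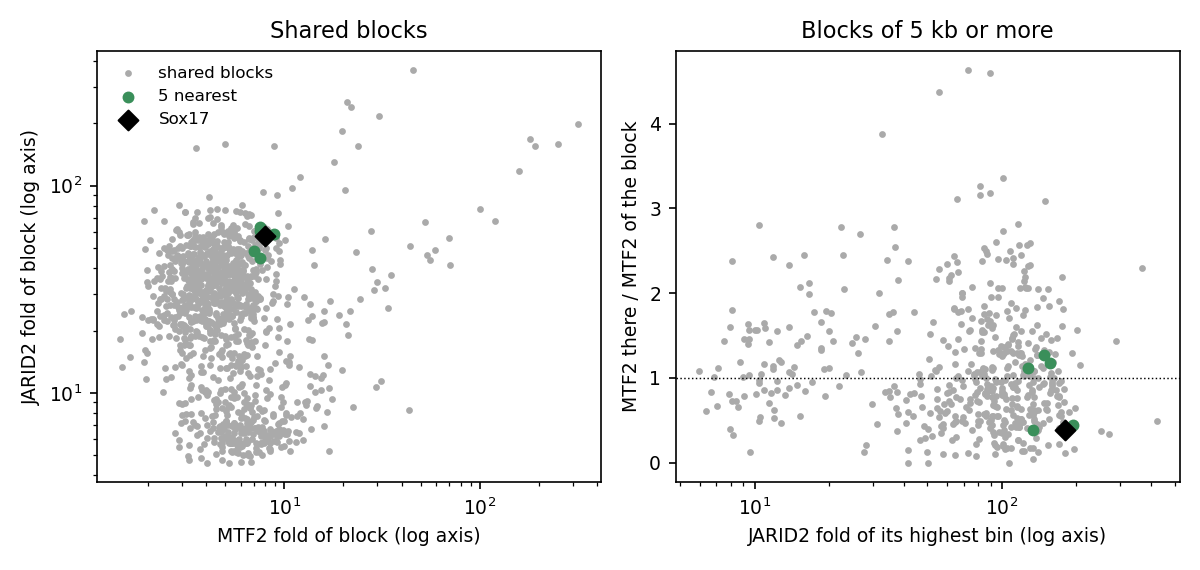
Left, MTF2 against JARID2 fold, both on log axes, of the 1164 shared blocks, with Sox17 as a black diamond and the 5 nearest blocks in green. Right, for blocks of 5 kb or more, the MTF2 fold of the highest JARID2 bin divided by that of the whole block, against the JARID2 fold of that bin on a log axis; Sox17 is at 0.391 and the dotted line marks 1.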

How the data were processed

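The authors deposited 1 file of aligned reads per library, 10986401 reads of 52 bp for MTF2 and 14465269 of 36 bp for JARID2, with a deposited score per read whose meaning is not given. The labels describe 15 PCR cycles and a Genome Analyzer. The sources used here name no aligner or genome build. Of reads with identical position and strand, 1 was kept (8946204 and 12900993 reads in all), 5′ ends were moved 70 bp (MTF2) or 100 bp (JARID2) downstream and counted in 1 kb bins and 200 bp steps. Expected counts are chromosome means over bins with a read in either library up to the 99th percentile. Steps and peaks are given as read counts, and areas as folds on the 1 kb scale. Called means 5-fold or more, and called bins at most 1 kb apart were joined. Ratios use all kept reads of each library. Poisson and Clopper-Pearson intervals were computed with scipy 1.17.1 in Python 3.11.15, and the counting was tested on simulated data. The gene, the window and the lists were chosen with earlier results of these data known. The peaks follow a stated rule (the highest step and the next 2 local maxima at least 1 kb away), as do the 5 nearest blocks. The limit of 5 kb, the quotients and the empty stretches were chosen after seeing the data. The MTF2 share in the JARID2 peaks and the MTF2 fold of the highest JARID2 bin were not among the results planned beforehand. Nor was the limit of 3 deposited reads per kept read part of that plan. Promoter sequence, base composition, other endoderm genes and ES cell markers were not analysed here.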

Additional observations from a re-analysis of the deposited data

How the results depend on the processing

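Over 10 results, 72 values under alternatives were computed. Of these, 55 stayed and 17 moved. Staying meant within the counting interval, within 1.5 times for counts, widths and lengths, or within 1 step for the summit distance. Reversal was not assessed. With all deposited reads the JARID2 fold was 73.3, the ratio 8.35 and the MTF2 width 5 kb. With bins moved by 500 bp the JARID2 fold was 63.7. With JARID2 thinned to the MTF2 depth the folds were 6.80 (MTF2) and 47.6 (JARID2), over a block of 11 kb, and the summit distance was 800 bp. With the expected count from 500 kb on either side the folds were 7.0 and 51.3 and the MTF2 width 4 kb. With the bin median in place of the mean they were 9.37 and 60.6. At 10-fold the MTF2 width was 1 kb and 2 bins were called in both libraries. Sliding windows of 1000 bp put the summits 910 bp apart. The JARID2 width stayed between 8 and 11 kb in all 9 alternatives run. The MTF2 share in the JARID2 peaks was 21.3% with unshifted reads and peaks redrawn from them, and 11.5 to 16.4% in the other 5 alternatives. The MTF2 fold of the highest JARID2 bin was 5.99 with moved bins and 4.79 without score 0. The empty MTF2 stretch was 572 bp without the shift and 646 bp otherwise. Beyond these constructions the cause was not tested. No paired analysis was possible because each factor has 1 library. With 3.51 MTF2 reads expected per kb, single 200 bp steps of MTF2 are coarse.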
